A study of Emberiza melanocephala with 12 samples.

Results

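The liver of photorefractory blackheaded buntings (Emberiza melanocephala), a latitudinal migrant, was described here by RNA-seq at 6 times of a single day. All 6 libraries of this non-migratory state (nM, named LDR in the labels) were taken out of 12 in the study, and the early-day libraries of zeitgeber times (ZT, hours after lights on) 1, 5 and 9 were compared with the late-day libraries of ZT13, 17 and 21. The nM birds were wild-caught adult males that had stayed on long days until they were photorefractory, with regressed testes and no fat deposits, and that were then kept singly on the same long days. The other 6 libraries came from males moved from short to long days and sampled at the same 6 times, once they showed nocturnal migratory restlessness. This photostimulated migratory state (M) is named LDM in the sample titles and LD in the column labels. Each library was the liver of 1 bird, so the 3 early-day and the 3 late-day birds differ in time of day as well as in identity, and a p-value measures only the spread between such birds. Lights went off between ZT13 and ZT17, so the ZT13 bird was still in the light while the ZT17 and ZT21 birds were in darkness. The question was how far the expressed genes of the photorefractory liver differed between the earlier and the later part of the day, and how far any difference rested on the ZT5 library.

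In liver cells a molecular clock runs on a feedback loop in which CLOCK or its relative NPAS2 pairs with ARNTL (BMAL1) or ARNTL2 to switch on period (PER) and cryptochrome (CRY) genes, whose proteins then repress that pair. Further arms of the loop include the repressors NR1D2 and BHLHE40 and the PAR bZIP output factors TEF and HLF, with NFIL3 as their antagonist. In the vertebrate liver this loop and the feeding cycle together time fuel handling, with glycogen and amino acid use, fatty acid synthesis and fatty acid oxidation peaking at different times of day.

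Values were FPKM, read numbers scaled to transcript length and to the mapped reads of the library, which allow levels to be compared between genes per length, and differences were early-day minus late-day means of log2(FPKM + 1). Of 18284 genes in the table, 9703 had an FPKM above 0.1 in at least 5 of the 6 nM libraries and were tested, and 4131 of these carried a gene symbol. The summed FPKM, in units of 1e+06, lay between 1.52 at ZT21 and 2.51 at ZT1 in nM, while the M library of ZT17 reached 6.99 and stands apart from the other M libraries. The reads behind a single value cannot be recovered from FPKM, so no counting interval is given. By the study's read numbers, ZT5 was the deepest nM library and ZT13 the shallowest. Every early-day nM library had more reads than every late-day one, though ZT9 and ZT21 were nearly equal. A 0 listed at ZT13 thus rests on the fewest reads, and the part of depth in the differences was not tested.

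The hepatocyte genes that define the organ were high in these libraries. APOB, the structural protein of secreted lipoprotein particles, lay between 360.7 and 937.8 FPKM, and FGB, the fibrinogen beta chain, between 1850 and 26712 FPKM. ALB, albumin, had 21574 to 39835 FPKM in 5 libraries and was listed at 0 in the ZT5 library, where all other hepatocyte markers were present. A value of 0 for an abundant gene can be a failed estimate, and 6 other genes with a median above 100 FPKM, none of them with a symbol, were listed at 0 in 1 of the other libraries, so ALB is given only as listed at 0. The ZT13 library held TNNT3, the fast skeletal muscle troponin T, at 428.3 FPKM against at most 1.055 FPKM in the other 5 libraries. PVALB-2, a parvalbumin chosen after its values were seen, stood at 87.25 FPKM there and at most 1.03 FPKM elsewhere. DES, desmin, had 20.18 FPKM there and 12.62 to 32.36 FPKM elsewhere, and the part of muscle RNA in any result was not tested.

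No gene passed the test. With limma, 0 of 9703 genes (0% called) reached a false discovery rate below 0.1 with an absolute log2 difference above 0.1, and the lowest adjusted p was 0.133. At an unadjusted p under 0.05 there were 625 genes (6.44%), of which 355 (3.66%) were higher early in the day and 270 (2.78%) higher late. Linear regression without moderation called 0 genes and left 619 at that level, but with the split turned round, 288 higher early and 331 higher late. The limma split at this level also moved with the library left out. It was 279 early and 307 late without ZT13, 322 and 142 without ZT17, 396 and 428 without ZT1, and 228 and 249 without ZT21. Without ZT5 it was 361 and 205, without ZT9 422 and 282, and under equal summed FPKM 189 and 442. The 3 early-day and the 3 late-day values did not overlap for 1313 genes (13.5%), 645 of them higher early (6.65%) and 668 higher late (6.88%). With 3 birds against 3 an exact two-sided permutation test of a single gene cannot go below p = 0.1, which every gene without overlap reaches. Among genes with a symbol the shares were larger, with 380 at an unadjusted p under 0.05 (9.2%), 403 higher early without overlap (9.76%) and 369 higher late (8.93%). Symbols came from the study's lists of cyclic and state-dependent genes, which were drawn from the same libraries, so this larger share is no independent evidence.

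The split between early and late depended on the scaling. With every library rescaled to the same summed FPKM, the median difference of all genes moved from -0.00364 to -0.157 (log2), and the genes without overlap became 329 higher early and 1050 higher late. Quantile normalization gave a median of -0.0265 with 583 higher early and 817 higher late. The differences given below are on the deposited scale.

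Clock genes were among those with the largest differences between early and late. Of the 15 clock genes tested, 3 had higher values in every early-day library (PER2, BHLHE40 and HLF), 2 had higher values in every late-day library (NPAS2 and ARNTL2), and 10 overlapped. Against the background share of 13.5% of all genes without overlap, or 18.7% of those with a symbol, that is 5 of 15. The lists of activators, of repressors and regulators and of output factors named 8, 17 and 4 genes, of which 4, 9 and 3 carried a symbol and 3, 9 and 3 were tested.

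Among the repressors, PER2 (ENSTGUG00000005357), a negative limb component of the loop, had 13.9, 28.89 and 13.63 FPKM at ZT1, 5 and 9 and 0.8128, 0.6331 and 1.509 FPKM at ZT13, 17 and 21. Every early-day value was thus several times every late-day value, with the peak at ZT5. The log2 difference was 3.26 (SE 0.37), with an adjusted p of 0.133 in limma. BHLHE40 (DEC1), a repressor that competes for the same promoter elements, had 80.47, 12.19 and 19.59 FPKM early and 1.122, 0.3626 and 6.579 FPKM late. Its difference was 3.33 (SE 0.82, adjusted p = 0.708), with a wide range of values both early and late. PER3, a further period gene, had 25.68, 15.27 and 6.953 FPKM early but 0.3504, 0.2454 and 12.57 FPKM late, so that the ZT21 value fell among the early ones. That is a trough confined to ZT13 and ZT17 among these 6 libraries, and the difference was 2.41 (SE 0.93, adjusted p = 0.726).

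Other repressors and regulators had values over the 6 libraries that did not divide between early and late. CRY1, a cryptochrome, was lowest at ZT21 (5.469 FPKM) and highest at ZT13 (157.8 FPKM), with 16.49, 56.95 and 74.48 FPKM at ZT1, 5 and 9 and 68.13 FPKM at ZT17. Both extremes lay in the late-day group, and the difference of its means was 0.036 (SE 1.13). NR1D2 (REV-ERB beta), a nuclear receptor that represses ARNTL, had 56.39, 29.94 and 7.952 FPKM early and 4.323, 16.58 and 80.98 FPKM late. Its trough stood at ZT13 and its peak at ZT21, again both late-day libraries. CRY2 stayed between 23.52 and 34 FPKM in all 6 libraries. The kinase CSNK1E, which phosphorylates PER proteins, lay between 6.904 and 15.65 FPKM, and the ubiquitin ligase subunit FBXL21, which acts on cryptochromes, lay between 19.87 and 48.72 FPKM. All 3 overlapped between early and late.

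Of the 3 activators tested, NPAS2 and ARNTL2 had the opposite order to PER2 and BHLHE40. NPAS2 had 0.2285, 0.3566 and 1.063 FPKM at ZT1, 5 and 9 and 21.27, 39.92 and 2.113 FPKM at ZT13, 17 and 21. The 2 libraries around the light-dark transition stood far above all others, while ZT21 was the late-day value nearest to the early ones, and the difference was -3.23 (SE 0.86, adjusted p = 0.708). ARNTL2, a paralog of BMAL1, had 8.55, 4.925 and 8.019 FPKM early and 11.31, 35.88 and 16.17 FPKM late. Its values peaked at ZT17, and the difference was -1.31 (SE 0.44, adjusted p = 0.715). ARNTL itself was listed at 0 in all 12 libraries and was not tested, though the paper names it among the genes that cycled in this liver. It is therefore given only as listed at 0. CLOCK carried no symbol in the lists used here. NCOA2, a coactivator of the CLOCK complex, overlapped, with 8.265 to 15.38 FPKM, and its mean was higher early by 0.24 (log2).

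Of the output factors, HLF had 99.38, 79.59 and 67.99 FPKM early and 52.61, 28.49 and 45.99 FPKM late, a difference of 0.97 (SE 0.32, adjusted p = 0.715). It was the only output factor without overlap. TEF ran from 17.07 FPKM at ZT13 to 60.57 FPKM at ZT21, with 56.47 FPKM at ZT1 and 22.26 and 27.15 FPKM at ZT5 and ZT9. NFIL3 ran from 69.97 FPKM at ZT21 to 255.8 FPKM at ZT13, both late-day libraries.

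**Figure D1:**
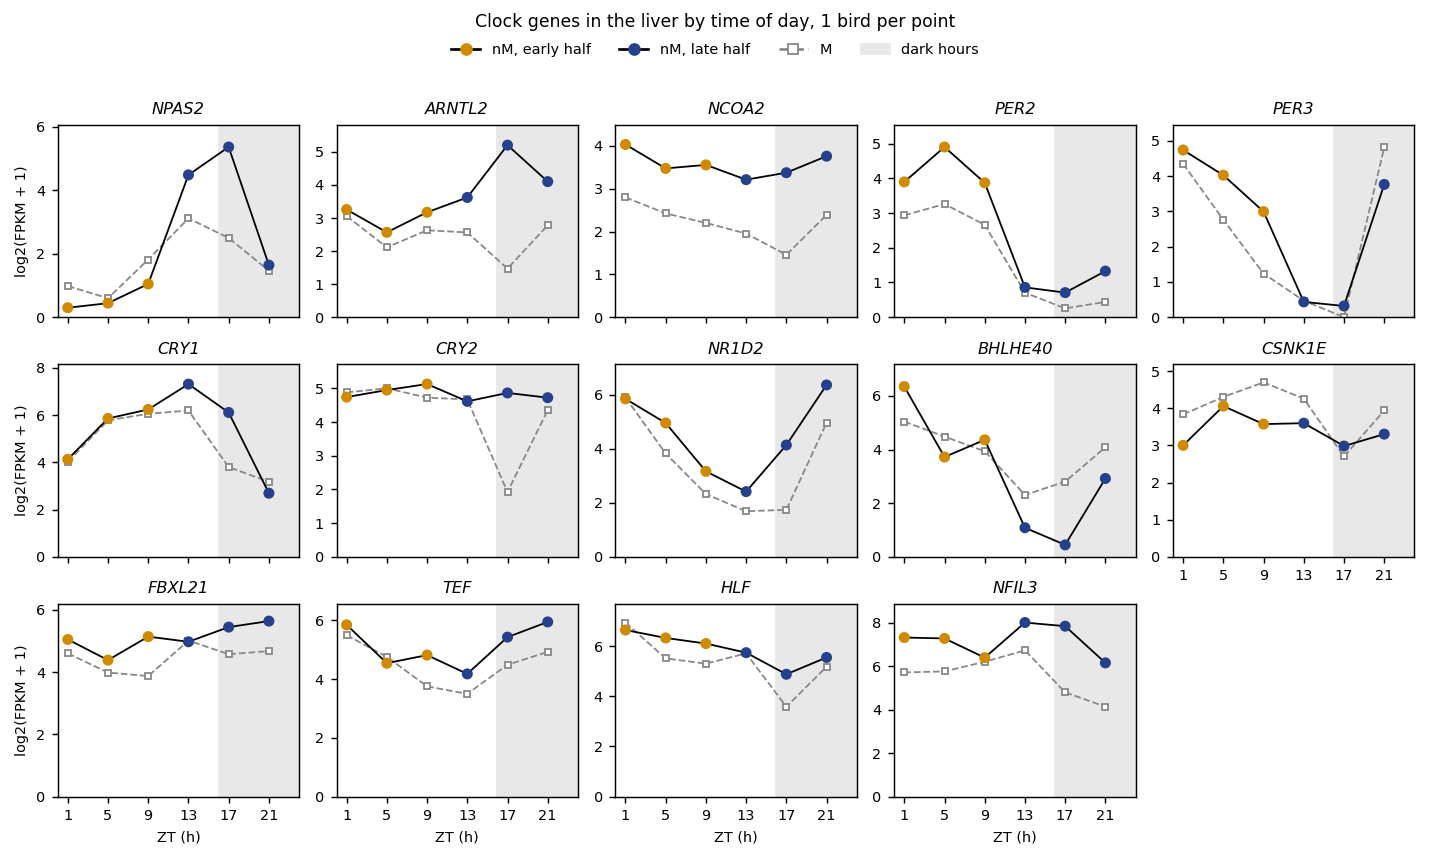
Levels of clock genes tested, as log2(FPKM + 1), against zeitgeber time (hours after lights on), with 1 bird per point. Filled points joined by a solid line are nM birds (orange ZT1 to ZT9, blue ZT13 to ZT21), open squares joined by a dashed line are M birds and shading marks darkness. PER2 is high at ZT1 to ZT9 and low from ZT13 in both states, and NPAS2 peaks at ZT17 in nM.

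In each direction 10 genes were named, those with the lowest p among non-overlapping genes with a symbol and a mean of at least 1 FPKM. Their log2 differences lay between 1.22 and 3.26 in size and their adjusted p-values between 0.133 and 0.708. Besides PER2 the early-day genes included enzymes of amino acid metabolism. SHMT1 (ENSTGUG00000007082), the cytosolic serine hydroxymethyltransferase of one-carbon metabolism, had 834.1, 544.9 and 379.7 FPKM early and 74.17, 67.06 and 189.4 FPKM late. Its lowest early-day value, at ZT9, lay above its highest late-day value, at ZT21, and the difference was 2.49 (SE 0.48). PYCR1, which makes proline in mitochondria, had 22.37, 33.02 and 43.68 FPKM early and 13.71, 6.066 and 8.467 FPKM late. ANGPTL4, a secreted inhibitor of lipoprotein lipase and a target of PPAR receptors, had 144.5, 83.29 and 264.4 FPKM early and 44.26, 9.766 and 18.13 FPKM late. Its difference was 2.82 (SE 0.60), next to that of PER2 the largest of the 10.

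The other 6 early-day genes covered several functions. DPEP1, a membrane dipeptidase, had 15.76 to 21.12 FPKM early and 4.22 to 7.766 FPKM late, and VAMP3, a vesicle SNARE, had 136.6 to 236.2 and 27.92 to 67.65 FPKM. SARM1, an enzyme that degrades NAD, had 25.92 to 70.89 FPKM early against 9.478 to 12.29 FPKM late. LRRC58 and ANKRD9 lay at 25.85 to 44.3 and 46.85 to 86.46 FPKM early, against 8.715 to 14.46 and 15.84 to 34.1 FPKM late. KLF2, a Krüppel-like transcription factor, was low throughout, with 3.366, 2.155 and 1.74 FPKM early, listed at 0 at ZT13, and 0.6968 and 0.353 FPKM at ZT17 and ZT21. ZT1 was the highest library for 5 of the 10 genes (DPEP1, SHMT1, VAMP3, SARM1 and KLF2).

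The late-day genes included the regulator and an enzyme of fatty acid oxidation. PPARA (ENSTGUG00000011797), the nuclear receptor that turns on fatty acid oxidation in liver, had 77.05, 73.22 and 115.9 FPKM at ZT1, 5 and 9 and 260.7, 437.3 and 266.2 FPKM at ZT13, 17 and 21. The difference was -1.83 (SE 0.33, adjusted p = 0.705). HADH (ENSTGUG00000004004), the hydroxyacyl-CoA dehydrogenase of mitochondrial beta-oxidation, had 134.8, 139.7 and 194 FPKM early and 620.7, 696.1 and 476.7 FPKM late. Its difference of -1.93 (SE 0.29) had an adjusted p of 0.390, and both genes peaked at ZT17. CYP2U1 (ENSTGUG00000003983), a cytochrome P450 that hydroxylates long-chain fatty acids, had 18.42, 35.01 and 26.94 FPKM early and 250.5, 405.8 and 147.6 FPKM late. It differed by -3.20 (SE 0.43, adjusted p = 0.291). Whether CYP2U1 and HADH are neighbouring or overlapping genes was not checked, so their values may not be independent. CETP, the cholesteryl ester transfer protein of plasma, had 97.27, 45.24 and 56.86 FPKM early and 182.4, 170.9 and 214.5 FPKM late.

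C12orf28 (ENSTGUG00000007004), an uncharacterized open reading frame, shared the lowest adjusted p with PER2. It had 0.141, 0 and 0.1579 FPKM early and 8.483, 15.49 and 6.34 FPKM late, a difference of -3.25 (SE 0.35, adjusted p = 0.133). This gene was close to absent from the early-day libraries and peaked at ZT17. HTRA1, a secreted serine protease, had 20.67 to 24.88 FPKM early and 86.84, 198.8 and 96.74 FPKM late. TNFSF10-2, a copy of the death ligand TRAIL whose reads may be shared with near copies, had 0.6542 to 1.447 FPKM early and 4.716 to 15.62 FPKM late. CDS1, which makes CDP-diacylglycerol for phospholipid synthesis, had 0.8082 to 2.574 FPKM early and 7.393 to 16.2 FPKM late. PACRGL and the cyclin-dependent kinase CDC2L6 lay at 0.4681 to 1.029 and 4.609 to 6.548 FPKM early, and at 4.439 to 6.817 and 13.99 to 15.93 FPKM late. ZT17 was the highest library for 8 of the 10 late-day genes, the exceptions being TNFSF10-2 and CETP. Of the 30 genes with the lowest p, 10 carried no symbol.

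**Figure D2:**
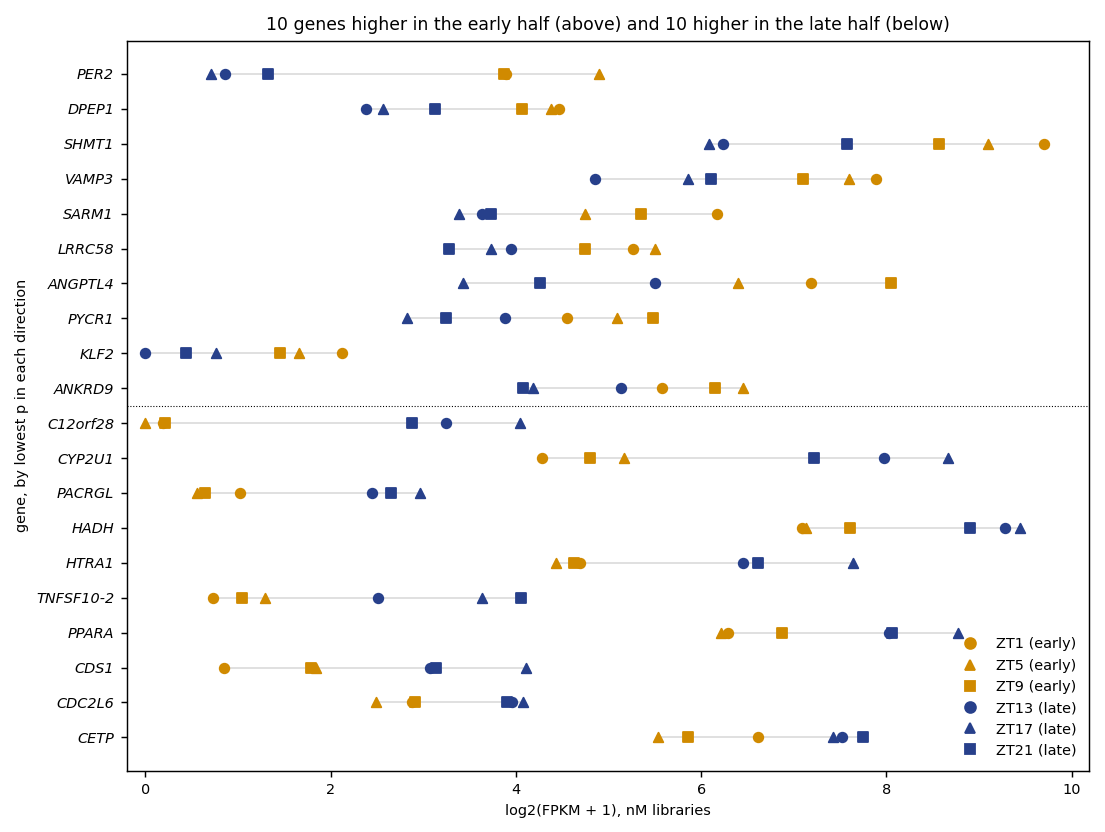
Levels of 20 genes in the 6 nM libraries as log2(FPKM + 1), with 1 bird per point, orange for ZT1, 5 and 9 and blue for ZT13, 17 and 21. The 10 genes above the dotted line are higher in every early-day library and the 10 below it in every late-day library, as they were chosen to be. C12orf28 and CYP2U1 show wide gaps, from 0.1579 to 6.34 FPKM and from 35.01 to 147.6 FPKM.

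Lipid genes were mixed between early and late. Of 21 tested genes of fatty acid and triglyceride synthesis, 0 were higher in every early-day library and 5 in every late-day library, against 8.93% of genes with a symbol, and the list median was 0.041 against 0.00716 for genes with a symbol, and -0.144 under equal summed FPKM. ELOVL2, an elongase of very long polyunsaturated fatty acids, had 3.613, 66.22 and 74.23 FPKM early and 1145, 640.8 and 275.8 FPKM late. That is the largest difference among the genes of this list, -4.36 (SE 1.07, adjusted p = 0.708), with the peak at ZT13 and the trough at ZT1. ELOVL5, which elongates shorter polyunsaturated chains, had 188.9, 478.9 and 620.2 FPKM early and 1551, 1196 and 817.1 FPKM late. ACSL5, an acyl-CoA synthetase, had 248, 470.7 and 463.9 FPKM early and 1071, 799.2 and 579.3 FPKM late. Both followed the order of ELOVL2 in the late-day birds, highest at ZT13 and lower at ZT17 and ZT21. The other 2 without overlap were the acyltransferases AGPAT3 and AGPAT2, with differences of -0.79 and -0.28.

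The genes of new fatty acid synthesis did not share this direction. SCD, the stearoyl-CoA desaturase, had 4511, 7089 and 6557 FPKM early and 5598, 1907 and 1444 FPKM late, a difference of 1.25 (SE 0.51, adjusted p = 0.751) with overlap at ZT13. FASN, fatty acid synthase, had 4797 to 7221 FPKM early and 2834 to 5636 FPKM late, and ACLY, which supplies cytosolic acetyl-CoA, 1356 to 2356 and 768.8 to 1906 FPKM. Both overlapped.

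The list for fatty acid oxidation and ketogenesis held 17 tested genes. Of these, 1 was higher in every early-day library and 4 in every late-day library, against 9.76% and 8.93% of genes with a symbol. The early one was ANGPTL4, described above as an inhibitor of lipoprotein lipase and not itself an enzyme of oxidation. The late ones were HADH, PPARA, CPT2 and ACOX3. The list median was -0.20, and -0.355 under equal summed FPKM. CPT2, the inner-membrane carnitine palmitoyltransferase, had 55.52, 55.88 and 67.49 FPKM early and 74.39, 90.39 and 108.9 FPKM late, a small difference of -0.59. ACOX3, a peroxisomal oxidase, had 9.399 to 23.51 and 25.65 to 28.13 FPKM. CPT1A, the outer-membrane transferase, overlapped: its ZT1 value of 134.4 FPKM lay among the late ones (66.29, 226.5 and 304 FPKM), while ZT5 and ZT9 had 40.27 and 27.29 FPKM. The dehydrogenases ACADM and ACADL had differences of -0.37 and -0.02.

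Among genes of glycolysis, gluconeogenesis and glycogen, those without overlap were all higher early. Of 20 tested, 6 were higher in every early-day library and 0 in every late-day library, against 9.76% and 8.93% of genes with a symbol, with a median of 0.25 that was 0.064 under equal summed FPKM. PFKFB2, which sets the fructose 2,6-bisphosphate level that drives glycolysis, had 9.02, 9.076 and 10.5 FPKM early and 3.382, 5.843 and 5.075 FPKM late, a difference of 0.89 (SE 0.28, adjusted p = 0.708). PYGL, liver glycogen phosphorylase, had 193.1, 285.6 and 169 FPKM early and 120.4, 112.4 and 124.6 FPKM late. UGP2, which makes UDP-glucose for glycogen, had 936.1, 973.1 and 539.9 FPKM early and 501, 529 and 404.4 FPKM late. These differences were small, 0.82 for PYGL and 0.73 for UGP2, and the other members without overlap, ENO1, GAPDH and HK3, differed by 0.53, 0.45 and 0.32. HK3 lay near the filter of 0.1 FPKM, with 0.1457, 0.5055 and 0.4226 FPKM early. It had 0.1295 and 0.1207 FPKM at ZT13 and ZT17 and was listed at 0 at ZT21. PCK1, the rate-limiting enzyme of gluconeogenesis, varied widely but overlapped, with 7662, 2217 and 425.6 FPKM early and 1135, 5429 and 9355 FPKM late. It was high on both sides of lights on, at ZT21 and ZT1.

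Amino acid catabolism had a median of 0.54 over 24 tested genes, and 0.37 under equal summed FPKM. Of these, 4 were higher in every early-day library (SHMT1, OAT, TAT and GOT2) and 1 in every late-day library (GLUD1), against 9.76% and 8.93% of genes with a symbol. OAT, ornithine aminotransferase, had 399.2, 457.2 and 403.6 FPKM early and 234.3, 171.8 and 232.1 FPKM late, with little spread within either group, and a difference of 0.99 (SE 0.26, adjusted p = 0.708). TAT, tyrosine aminotransferase, had 2664, 6043 and 1908 FPKM early and 1158, 613.4 and 1439 FPKM late. GLUD1, mitochondrial glutamate dehydrogenase, had 208.3 to 230.6 FPKM early and 256.7 to 657.8 FPKM late. MAT1A, the liver methionine adenosyltransferase, had 1375, 1391 and 525.6 FPKM early and 179.2, 198.8 and 571.8 FPKM late, so that ZT9 and ZT21 were close to each other and overlapped. ZT13 was the lowest library of the 6 for the list as a whole, at a median of -0.70 (log2) from the mean of each gene.

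Counts of bile acid, cholesterol and oxidation genes stand against 9.76% of genes with a symbol higher in every early-day library and 8.93% in every late-day library. Of 11 bile acid genes, 2 were higher in every early-day library: CYP27A1, the sterol 27-hydroxylase (260.1 to 586 FPKM early, 153.6 to 165 FPKM late), and FGFR4, the receptor through which FGF19 restrains bile acid synthesis (18.67 to 49.52 and 12.39 to 13.24 FPKM). For both genes ZT5 was the highest library. CYP7A1, the rate-limiting enzyme of bile acid synthesis, overlapped widely, from 14.88 FPKM at ZT1 to 183.4 FPKM at ZT9. No gene of the 10 in cholesterol synthesis was free of overlap, and HMGCS1 ran from 105.6 FPKM at ZT9 to 5057 FPKM at ZT1, both early-day libraries. Of 23 oxidation and conjugation genes, SULT2B1, a sterol sulfotransferase, was higher in every early-day library (36.92 to 89.98 FPKM against 14.42 to 34.47 FPKM), and CYP2U1 and CYP2R1, a vitamin D 25-hydroxylase, in every late-day library (CYP2R1 1.528 to 3.43 FPKM early, 4.877 to 7.361 FPKM late). CYP3A5, a drug-metabolizing P450, overlapped at ZT13 only, with 209, 243.9 and 124.6 FPKM early and 148.2, 38.18 and 30.04 FPKM late.

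Of 15 immediate early and growth arrest genes, 6 were higher in every early-day library and 1 in every late-day library, against 9.76% and 8.93% of genes with a symbol, with a median of 0.46 (0.473 under equal summed FPKM). CEBPA, the C/EBP alpha factor of hepatocytes, had 22.61, 31 and 14.99 FPKM early and 9.524, 7.71 and 8.656 FPKM late, a difference of 1.26 (SE 0.32, adjusted p = 0.708). FOSL2, an AP-1 subunit, had 8.048, 5.469 and 0.7777 FPKM early, was listed at 0 at ZT13 and had 0.5257 and 0.4106 FPKM at ZT17 and ZT21. FOS itself had 3.631, 3.482 and 2.822 FPKM early and 2.294, 1.559 and 0.6939 FPKM late. These levels were low, so the differences on the log2(FPKM + 1) scale, 1.87 and 0.82, understate the ratios. KLF2 and the phosphatases DUSP4 and DUSP6 were the others higher in every early-day library. DUSP4 was low, with 0.5146 to 0.758 FPKM early, 0.4402 and 0.127 FPKM at ZT13 and ZT17, and listed at 0 at ZT21. CYR61, a secreted matrix protein, was the member higher in every late-day library (26.4 to 33.49 against 34.62 to 50.85 FPKM).

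Genes of protein synthesis and degradation had small differences, and their counts stand against 9.76% of genes with a symbol higher in every early-day library and 8.93% in every late-day library. Of 19 cytosolic ribosomal protein genes, whose reads may be shared with near-identical copies, 18 had a higher mean early, against 49.7% of all genes tested. Of these 18, 5 were higher in every early-day library, and RPS7 was higher in every late-day library. The differences were small, with a median of 0.22 that was 0.036 under equal summed FPKM. RPL35 led them with 209.6, 246.7 and 195 FPKM early and 129.9, 105.3 and 74.83 FPKM late, a difference of 1.09 (SE 0.30, adjusted p = 0.708). Of 20 mitochondrial ribosomal protein genes, 4 were higher in every late-day library and 1 in every early-day library (median -0.27, and -0.458 under equal summed FPKM). MRPS35 had 76.93, 36.38 and 65.4 FPKM early and 81.18, 101.7 and 106 FPKM late. Of 20 proteasome genes, 2 were higher in every late-day library, the lid subunits PSMD11 (86.16 to 121.7 against 170.7 to 234.1 FPKM) and PSMD12, with a list median of -0.19 (-0.366 under equal summed FPKM). GABARAPL2, a ubiquitin-like protein of autophagosome membranes, was the member of 16 autophagy genes without overlap, at 48.15 to 92.26 FPKM early and 105.1 to 147.2 FPKM late.

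Among 16 genes of the respiratory chain and ATP synthase, 3 were higher in every early-day library and 1 in every late-day library, against 9.76% and 8.93% of genes with a symbol. NDUFV1, a complex I subunit, had 24.02, 61.84 and 21.33 FPKM early and 13.43, 9.81 and 10.68 FPKM late, and ATP5L, an ATP synthase subunit, 61.16, 307.1 and 64.22 and 43.27, 41.63 and 39.81 FPKM. In both genes ZT5 was by far the highest library. Of 18 genes of protein folding in the endoplasmic reticulum, ERN1 (IRE1), a sensor of unfolded protein, was higher in every early-day library (18.99 to 38.06 against 9.009 to 15.98 FPKM). Of 11 heat shock and temperature-linked genes, DNAJA2, a cochaperone of HSP70, was higher in every late-day library (72.14 to 137.1 against 180.2 to 315.2 FPKM), and HSF4, a heat shock factor, in every early-day library (0.7223 to 1.179 against 0.2037 to 0.6894 FPKM). NOP2, an rRNA methyltransferase, was the gene without overlap among 22 of ribosome biogenesis (6.199 to 12.42 against 4.237 to 4.97 FPKM). PDPK1, the kinase that activates AKT, was the gene without overlap among 22 of hormone signalling, with 11.29 to 13.23 FPKM early and 14.53 to 19.9 FPKM late. No gene of the 13 in the cell cycle list, nor of the 8 SR and hnRNP splicing factors, was free of overlap.

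Secreted plasma proteins were mixed. HABP2, a plasma serine protease, had 254.2, 405.9 and 547.8 FPKM early and 1151, 1772 and 992.6 FPKM late, a difference of -1.72 (SE 0.38, adjusted p = 0.708). VTN, vitronectin, had 5317, 5080 and 4142 FPKM early and 2105, 3088 and 2461 FPKM late. CP, ceruloplasmin, which carries copper, had 230.6, 199.8 and 27.38 FPKM early and 48.69, 15.61 and 12 FPKM late and overlapped at ZT9. Over the list, 3 of 20 were higher in every early-day library and 2 in every late-day library, against 9.76% and 8.93% of genes with a symbol.

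**Figure D3:**
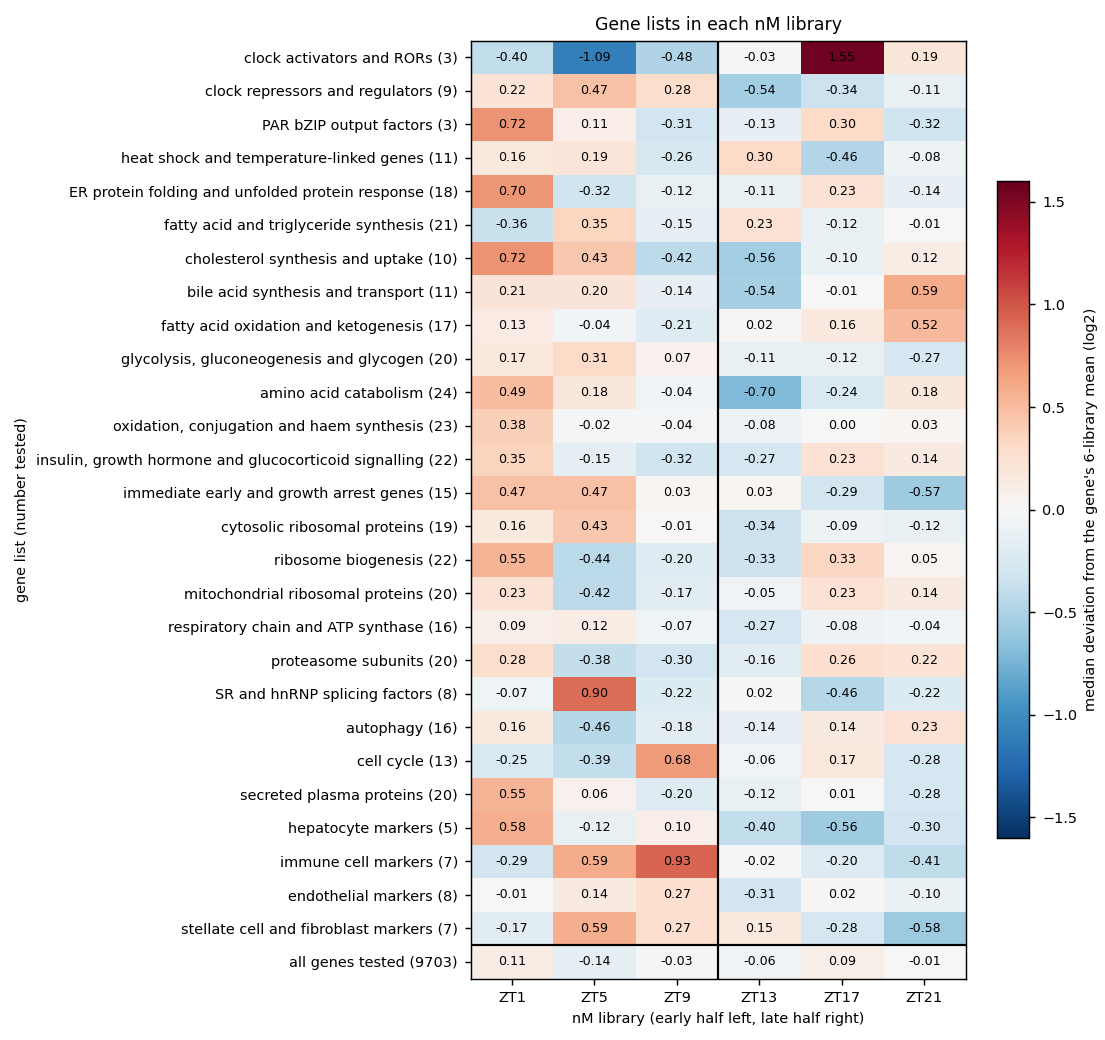
Median deviation of each gene list in each nM library (columns, ZT1 to ZT9 left of the line and ZT13 to ZT21 right) from each gene's mean over the 6 libraries, in log2 units, with the number of genes tested in parentheses and all 9703 genes in the bottom row. Within the early-day columns the lists often differ in sign, as for SR and hnRNP splicing factors (0.90 at ZT5, -0.07 and -0.22 at ZT1 and ZT9).

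No marker of another cell type passed the test, and most overlapped between early and late. For reading the counts of markers, 9.76% of genes with a symbol were higher in every early-day library and 8.93% in every late-day library. Fewer cells of a type and less RNA per cell cannot be told apart in these bulk samples. List medians were 0.225 for endothelial, 0.206 for immune cell, 0.53 for stellate cell and fibroblast and 1.1 for hepatocyte markers. Under equal summed FPKM these medians were 0.0947, 0.0581, 0.385 and 0.918. Of 8 endothelial markers, 3 were higher in every early-day library and 0 in every late-day library (summed 59.38 to 75.77 FPKM early and 44.22 to 54.37 FPKM late), with ESAM, an endothelial adhesion molecule, at 13.5, 16.37 and 17.25 FPKM early and 5.882, 3.11 and 9.717 FPKM late. Of 7 immune cell markers, 2 were higher in every early-day library (summed 93.95 to 217.1 FPKM early and 93.17 to 115.6 FPKM late). TIMD4, a receptor of resident macrophages, had 9.98, 32.15 and 41.32 FPKM early and 9.308, 7.878 and 7.017 FPKM late, so that ZT1 was close to the late-day birds. The macrophage receptor CSF1R had 12.68, 30.64 and 33.76 FPKM early and 13.59, 8.266 and 9.911 FPKM late, which overlapped. The other direction was seen for 3 of the 7, PTPRC, LCP1 and BLNK, whose means were higher late by small differences of -0.26, -0.21 and -0.09. Of 7 stellate cell and fibroblast markers, 1 was free of overlap, PDGFRB, at 5.861 to 6.219 FPKM early and 2.864 to 4.05 FPKM late (summed over the list, 309.2 to 464.6 and 294.6 to 392.2 FPKM). Of 5 hepatocyte markers, TAT, FGB and AHSG were higher in every early-day library, while APOB had 703.7, 360.7 and 374.2 FPKM early and 551.4, 937.8 and 822.1 FPKM late (difference -0.72), and the sums, 18120 to 70150 FPKM early and 30910 to 45810 FPKM late, contain the ALB value of 0 at ZT5. Red blood cell, bile duct and pancreas markers, 1 or 2 genes tested in each, overlapped. Markers without a symbol were not looked up, so each list covers only some of its defining genes, and the part of these markers in the other results was not tested.

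The ZT5 library was the one that deviated most from the other nM libraries. The median absolute deviation of its genes from the mean of the other 5 was 0.502 (log2), against 0.256 to 0.387 for the others, and its median Spearman correlation with them was 0.899 against 0.929 to 0.939. It held the highest or the lowest of the 6 values for 50.4% of genes, against 20.6% to 38.4% elsewhere, and the lowest for 3056 genes. It also had the most genes above 0.1 FPKM, 10737 against 10111 to 10560, and the fewest tested genes listed at 0, 10 against 43 to 232. By the study's read numbers it was the deepest nM library, and ZT13, with 232 such genes, the shallowest. The part of depth and of detection in the deviation of ZT5 was not tested. The first principal component, 35.1% of the variance, had ZT5 at an end. Genes with the highest values set apart at ZT5, chosen for that, included PPAT, which starts purine synthesis, with 898.5 FPKM against 7.464 to 36.68 FPKM elsewhere, and HNRNPA3, an RNA-binding protein, with 160.1 FPKM against 7.47 to 24.83 FPKM. PPP1R3C, a glycogen-targeting subunit of protein phosphatase, had 6.456 FPKM at ZT5 against 27.7 to 187.1 FPKM.

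Without the ZT5 library, 566 genes (5.83%) had an unadjusted p under 0.05 in place of 625. Leaving out any single library gave 464 to 824. Of the 625, 353 (56.5%) stayed at that level and all 353 kept their direction, while 272 left it and 213 others joined. The fits share all libraries but ZT5, so the kept direction is largely fixed by design. The shares kept without another library were not computed, so these shares do not show a dependence particular to ZT5. Of the 608 genes with an absolute log2 difference of at least 1, 386 (63.5%) still had one in the same direction, 209 lay below 1 and 13 turned round. Over all tested genes 18.3% changed the sign of their difference, and the median difference became 0.046. For 1 gene (0.0103% called), which carries no symbol (ENSTGUG00000008881), the test was passed without ZT5: it had 1161 and 616.9 FPKM at ZT1 and ZT9 but 3.638 FPKM at ZT5, and 5.267 to 7.903 FPKM late. Its difference was 6.74 with an adjusted p of 0.00722 in limma without ZT5.

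The 20 genes named above were chosen for a low p and for early-day values, ZT5 included, that did not overlap the late ones, so how little they moved without ZT5 is partly fixed by that choice. The PER2 difference was 2.92 without ZT5, that of C12orf28 -3.19 and that of HADH -1.86. Larger shifts were seen in other named genes. ATP5L dropped from 1.34 to 0.58, RPSA, a ribosomal protein, from 0.79 to 0.31 and TAT from 1.64 to 1.16, whereas BHLHE40 went from 3.33 to 3.87 and ELOVL2 from -4.36 to -4.98. With each single library left out in turn, ATP5L, RPSA and TAT were lowest without ZT5. BHLHE40 ranged from 2.558 to 4.045 and ELOVL2 from -5.062 to -3.048, both ends being reached without a library other than ZT5. The shifts of BHLHE40 and ELOVL2 are thus not particular to ZT5. ALB, listed at 0 at ZT5, went from -4.83 to 0.15. The median of the 8 splicing factors moved from 0.46 to 0.054 and that of the mitochondrial ribosomal proteins from -0.27 to -0.11, while glycolysis (0.25 and 0.28) and amino acid catabolism (0.54 and 0.53) hardly moved. Within nM, the hour ZT5, the bird sampled at that hour and the read depth of its library cannot be told apart. Among the early-day M birds, the ZT5 bird also had the highest ATP5L, RPSA and TAT, but not the lowest BHLHE40. Deviations from the group means at ZT5 correlated between nM and M at r = 0.417, the highest of all times sampled. The M library of ZT5 was also the deepest of its state, and the part of the hour was not tested.

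**Figure D4:**
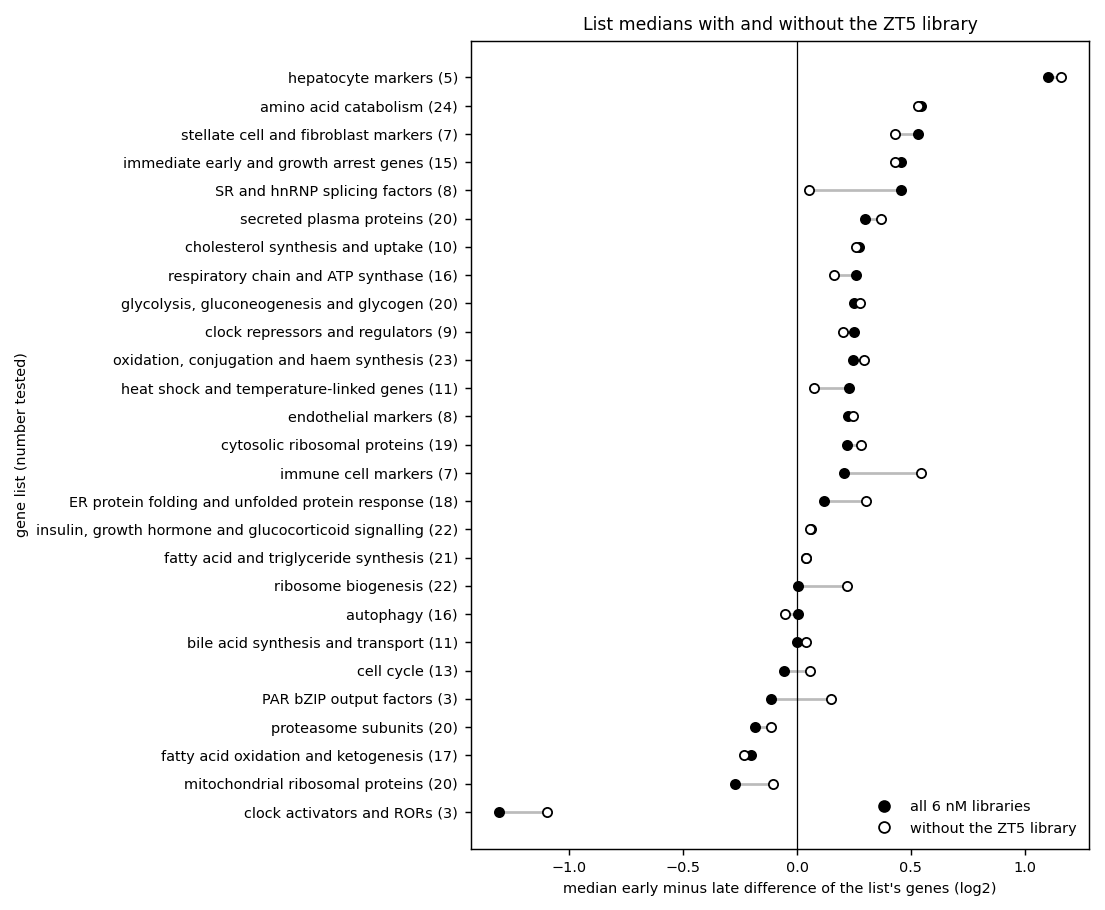
Median early-day minus late-day log2 difference of each gene list (number of genes tested in parentheses) with all 6 nM libraries (filled) and without the ZT5 library (open). SR and hnRNP splicing factors move from 0.46 to 0.054, and amino acid catabolism stays at 0.54 and 0.53.

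The genes without overlap in nM were found from nM values alone. Of the 645 genes higher in every early-day nM library, 47.4% had a higher early-day mean in M, against 54.4% of all genes, and 9.77% were free of overlap in the same direction there (7.27% of all genes). Of the 668 genes higher late in nM, 43% had a higher late-day mean in M, against 45.5% of all genes, and 5.54% were free of overlap in the same direction (5.03% of all genes). Without the M library of ZT17 the shares with the same direction were 63.7% against 54.1% of all genes for the early-day genes and 51.5% against 45.9% for the late-day genes.

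The 10 early-day and 10 late-day genes had to carry a symbol, and the symbols came from lists drawn from both states, so the M values are not fully independent of that choice. Of these genes, 4 and 7 had the same direction in M, or 7 and 7 without the M library of ZT17. The late-day 7 were not the same genes in both counts. Without M ZT17 the M difference of PPARA went from -0.016 to 0.185, and that of CDC2L6 from 0.143 to -0.175. PPARA had 208.3, 167 and 93.62 FPKM early and 87.81, 198.6 and 193.1 FPKM late in M, which overlapped. PER2 had 6.642, 8.578 and 5.323 FPKM early and 0.6302, 0.1911 and 0.3559 FPKM late in M, again without overlap. HADH had 180.4 to 258.4 FPKM early and 286 to 362.9 FPKM late in M, a difference of -0.53 there against -1.93 in nM. KLF2 was free of overlap in the opposite direction in M, with 0.9644 to 1.671 FPKM early and 1.815 to 6.012 FPKM late. ACSL5 was also opposite, with 521.3 to 678.2 FPKM early and 103.9 to 416.8 FPKM late in M. NPAS2 had 0.9729, 0.5115 and 2.516 FPKM early and 7.627, 4.628 and 1.754 FPKM late in M, an overlap at ZT21 with a peak at ZT13.

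The difference between the states was tested over all 12 libraries as the early-late difference in nM minus that in M, without pairing by time of day. No gene of 9566 passed at a false discovery rate below 0.1 in limma (lowest adjusted p = 0.7215), 434 (4.54%) had an unadjusted p under 0.05 and regression without moderation also called 0, with 376 at that level. With the time of day as a replicate block, 0 genes passed and 675 had an unadjusted p under 0.05 (lowest adjusted p = 0.6014). Leaving out 1 library moved the count at that level from 434 to as few as 192 (without M ZT1) and 285 (without M ZT9) and as many as 821 (without M ZT13) and 1008 (without M ZT21), and it was 352 without M ZT17. For the 15 clock genes the lowest adjusted p was 0.7215, for ARNTL2 among others, with a difference between states of -1.64. PER2 differed by 0.77 between the states and NPAS2 by -2.005, both with the same adjusted p. A single gene without a symbol passed when nM ZT5 was left out (adjusted p = 0.01399) and another when M ZT21 was left out (adjusted p = 0.0946). These values do not show that the states are alike.

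**Figure D5:**
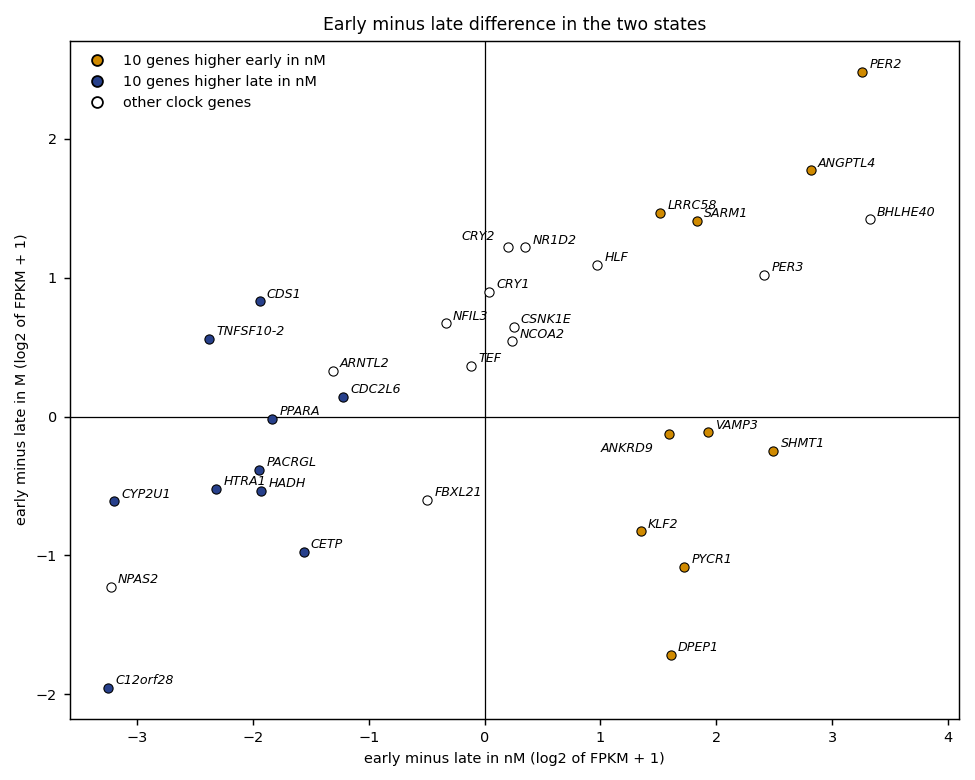
Early-day minus late-day difference in log2(FPKM + 1) in nM (horizontal) and M (vertical) for the 10 genes higher early in nM (orange), the 10 higher late (blue) and other clock genes (white). PER2 lies at 3.26 and 2.49, and 6 of the 10 orange genes lie below 0 in M.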

How the data were processed

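Liver RNA of 12 birds was extracted in a single batch, poly-A selected, made into libraries with a kit that does not mark strand and sequenced in a single lane as single-end reads. Reads from a gene and an antisense partner cannot be told apart. The authors removed ribosomal RNA with Bowtie2 2.0.2, mapped the reads to the zebra finch genome (taeGut 3.2.4) with STAR and deposited FPKM values from Cufflinks 2.2.1 for 18284 genes. They also deposited log2 values for 11246 of these, in a table and in 12 single-library files, which equal log2(FPKM + 1) within 1e-06 and were not used further. No read counts per gene were analysed here, so the number of reads behind a single value is unknown. The study does list the reads of each library, and these were not used in any fit.

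Groups were taken from the sample titles. The deposited FPKM were transformed as log2(FPKM + 1), which understates the change of low genes. Genes above 0.1 FPKM in at least 5 of 6 nM libraries (10 of 12 for the comparison of states) were tested with limma 3.58.1 in R 4.3.3, with Benjamini-Hochberg adjustment over all genes tested, a threshold of 0.1 and an absolute log2 difference above 0.1. The fits were tested on simulated data. Symbols came from the study's supplementary lists: 4648 of 5533 identifiers there carried 1 symbol. Named genes were all tested clock genes, the 10 genes with a symbol in each direction with the lowest p among those without overlap and with a mean of at least 1 FPKM, up to 4 genes of every other list with the lowest p, if under 0.05 or without overlap, and those most altered by leaving out ZT5. Some tested members of the lists are not reported here. A few others are named to describe a list, and their values were seen first. The gene lists, their members and the comparison were chosen with earlier results of these data known.

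For the comparison of states, deviations from the group means of the nM and M libraries of the same time were correlated (Pearson r over genes 0.35, 0.417, 0.131, 0.102, 0.11 and 0.165 from ZT1 to ZT21). All exceeded 0.1, so a fit with time of day as a block was run as an alternative. The main fit used the group means without such a block. Alternatives were leaving out each library, other filters, a pseudocount of 0.1, equal summed FPKM, quantile normalization, regression without moderation and 1 fit of all 12 libraries.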

Additional observations from a re-analysis of the deposited data

How the results depend on the processing

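In the early-late comparison within nM, where 0 genes passed, leaving out single libraries gave 0 to 1 genes, no filter on low values gave 5, equal summed FPKM gave 2 (C12orf28 and CYP2U1), quantile normalization gave 1 (C12orf28) and 1 fit of all 12 libraries gave 1 (PER2). The 5 genes without the filter carried no symbol and were higher early, and 4 of them were listed at 0 in all late-day libraries. The single gene passing without ZT5 carried no symbol. Genes at an unadjusted p under 0.05 numbered 464 to 824 with a library left out and 383 in the fit of all 12 libraries. Genes without overlap numbered 2071 to 2733 with a library left out, as fewer libraries overlap less by construction.

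For the comparison of states, leaving out single libraries gave 0 to 1 genes, the 1 gene being without symbol both without M ZT21 and without nM ZT5, and the time-of-day block gave 0 and changed no other call. No paired analysis was possible because the early-day and late-day libraries within nM come from different times and birds.

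Single genes were recomputed only with each library left out, with a pseudocount of 0.1 and under equal summed FPKM, and 77 of 81 named genes kept their direction in all of these. Most of the 81 were named for values without overlap, which cannot turn round when a library is left out. The count is thus largely fixed by the choice. The 4 that turned round were clock genes, which were named whatever their values. With a library left out, NR1D2 ranged from -0.5943 to 1.378, CRY1 from -1.303 to 1.005, CSNK1E from -0.007362 to 0.5206 and TEF from -0.6192 to 0.265, and CRY1 had -0.1215 under equal summed FPKM. Of 279 list medians recomputed, 16 moved by more than the spread between libraries. The causes were not tested. With 1 bird per time, the differences cannot be separated from those between birds.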
